A study of Mus musculus with 6 samples.

Results

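The sodium pump (Na,K-ATPase) genes described here are 7 of the 19938 genes tested, namely the beta subunits Atp1b1 and Atp1b2 and the FXYD regulators Fxyd1, Fxyd2, Fxyd5, Fxyd6 and Fxyd7. They were taken by name from the platform annotation, each with its probe set of highest mean over the 6 arrays, and each of the 7 has a single probe set. Their choice was made with the difference between control and mutant arrays known. Their values in that comparison are therefore a description, for which no p-value is given. The arrays hold RNA of the granule cell layer of the dentate gyrus (DG), cut from cresyl violet-stained cryosections by laser capture microdissection, from 3 control and 3 Bcl11b/Ctip2 mutant mouse samples. Mutants carry floxed Bcl11b alleles together with tetO-Cre and CaMKIIα-tTA, a tet-off system in which the CaMKIIα promoter drives the transactivator in forebrain neurons, so that Bcl11b can also be lost in forebrain neurons outside the DG. No source read here gives the genotype of the controls of this line. Mice of both groups drank doxycycline until 2 months of age, and the tissue was taken 4 weeks after its removal. Whether an array stands for 1 animal is not stated, and errors thus describe the spread between these samples, which may be technical.

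The sodium pump carries sodium out of the cell and potassium into it at the cost of ATP, and so maintains the gradients on which the resting potential, repolarization after firing and sodium-coupled transport depend. It consists of a catalytic alpha subunit and a beta subunit, a glycoprotein needed for its passage to the membrane. FXYD proteins, small single-span membrane proteins, can join the complex and change its affinity for ions. In brain, Atp1b1 is the main beta subunit of neurons and Atp1b2, also known as an adhesion molecule on glia, is abundant in astrocytes.

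Values are log2 expression, where 1 unit is a doubling, and a change is the mean of mutants minus the mean of controls with its standard error from limma. In the granule cell layer of mutants, 4 of the 7 genes were higher at a Benjamini-Hochberg adjusted p under 0.05 in limma, and none was lower. They were, in order of change, Fxyd7, Fxyd6, Atp1b2 and Fxyd5. Among all genes tested, 15.2% passed in either direction, 9.23% were higher and 5.93% lower. Control and mutant arrays were fully separated for 5 of the 7 genes, 4 with the mutants above and Atp1b1 with the mutants below. Over all genes, 31.6% were separated in this way, 17.0% with the mutants above and 14.6% with the mutants below. The median change of the 7 genes was 0.49, and that of all genes -0.0027. Since the genes were chosen on this contrast, nothing is read from these counts. The targeted gene Bcl11b (probe set 10402554) measured 10.56, 10.40 and 10.30 in controls against 9.03, 8.68 and 8.82 in mutants on the log2 scale, lower in every mutant than in any control. Whether these probes fall within the deleted exons is not stated.

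**Figure D1:**
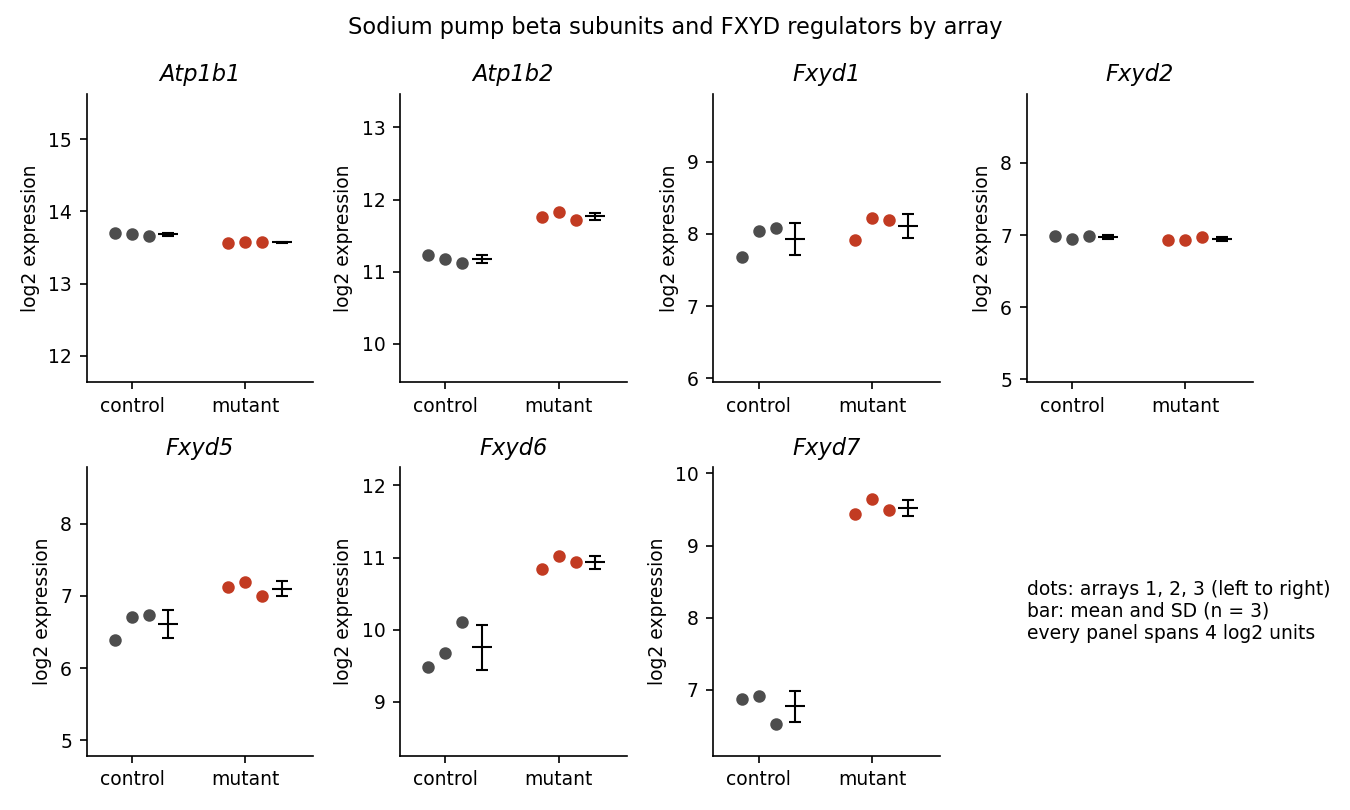
Log2 expression of each gene on the vertical axis in control (grey) and mutant (red) arrays, one panel per gene, each spanning the same range. Dots are arrays and bars the mean with SD (n = 3 per group). The gap between groups is widest for Fxyd7, at 2.52 between the highest control and the lowest mutant array.

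Fxyd7 showed the largest difference of the 7 genes. It encodes a regulator found mainly in brain, which binds the pump and lowers its affinity for potassium. Its log2 level (probe set 10562204) was 6.88, 6.92 and 6.53 in controls 1, 2 and 3 and 9.44, 9.65 and 9.49 in mutants 1, 2 and 3. The arrays of each group stood close together, with SDs of 0.22 and 0.11, and the lowest mutant lay 2.52 above the highest control. The log2 change was 2.75 (standard error 0.11), a fold of 6.73, and ranked 5 among the 19938 genes when ordered from the greatest increase to the greatest decrease. In either direction, 0.0401% of genes had a larger change. The control mean of 6.78 lay below 7.06, the median level of all genes, and the arrays carry no measure that places it above background, so the size of the fold rests on a dim control signal.

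Fxyd6, also called phosphohippolin, is a regulator known from the hippocampus. Its log2 level (probe set 10584883) was 9.48, 9.68 and 10.10 in controls and 10.85, 11.03 and 10.93 in mutants. All mutant arrays lay above all controls, with a gap of 0.74 between control 3 and mutant 1, and the controls were spread more widely, with an SD of 0.32 against 0.091 in mutants. The log2 change was 1.18 (standard error 0.14), a fold of 2.27, and ranged from 1.04 to 1.36 when each array was left out in turn.

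Fxyd5, or dysadherin, is known both as a pump regulator and for its effect on cell adhesion. Its log2 level (probe set 10562192) was 6.38, 6.71 and 6.73 in controls and 7.12, 7.19 and 6.99 in mutants. Mutants were again above controls, by a smaller gap of 0.26. The log2 change was 0.49 (standard error 0.098), a fold of 1.41. Its control mean of 6.61 lay below 7.06, the median level of all genes, so this change also rests on a dim control signal. Fxyd5 did not pass the threshold when mutant 2 was left out, which reduced the count of the 7 genes from 4 to 3. It did not pass at a threshold of 0.01 either.

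Fxyd1 and Fxyd2 did not separate the groups. Fxyd1, or phospholemman, is the regulator best known from heart and skeletal muscle, and its log2 level (probe set 10562211) was 7.67, 8.04 and 8.08 in controls and 7.91, 8.22 and 8.19 in mutants. Control 1 was the lowest array and mutant 1 lay below controls 2 and 3. The log2 change was 0.17 (standard error 0.12), with a 95% interval from -0.098 to 0.45. Without control 1 it was 0.046, and without mutant 1 it was 0.27. Fxyd2, the gamma subunit of the kidney pump, had log2 levels (probe set 10584891) of 6.98, 6.95 and 6.99 in controls and 6.94, 6.93 and 6.97 in mutants. All 6 arrays lay between 6.93 and 6.99, and the change was -0.029 (standard error 0.050), with a 95% interval from -0.14 to 0.085.

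Of both beta subunits, Atp1b2 was higher in mutants and Atp1b1 did not pass. The log2 level of Atp1b2 (probe set 10387505) was 11.23, 11.18 and 11.12 in controls and 11.76, 11.82 and 11.72 in mutants. Every mutant lay above every control, with a gap of 0.50 and SDs of 0.055 in controls and 0.051 in mutants. The log2 change was 0.60 (standard error 0.056), a fold of 1.51. Atp1b1 (probe set 10359689) was among the brightest probe sets on the arrays, with 0.0251% of genes above it. Its log2 level was 13.71, 13.69 and 13.66 in controls and 13.56, 13.58 and 13.58 in mutants, so every mutant lay below every control, by 0.085 or more. The log2 change was -0.11 (standard error 0.049), with a 95% interval from -0.22 to -0.0013, and it did not pass the test over all genes. With the unpaired two-tailed test of the study's methods after Benjamini-Hochberg adjustment, which uses the very small spread of Atp1b1 as it is, Atp1b1 passed with Atp1b2 and Fxyd7, and Fxyd5 and Fxyd6 did not. Levels of different probe sets cannot be compared, but the difference of their log2 values within an array can be followed between groups. Atp1b2 minus Atp1b1 was -2.48, -2.51 and -2.55 in controls and -1.80, -1.75 and -1.86 in mutants. Its mean was thus 0.71 higher in mutants, with SDs of 0.034 and 0.053, given as a description since both genes were chosen on this contrast. The deposited values carry no mark of saturated probes, and saturation of the very bright Atp1b1 signal was not tested.

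**Figure D2:**
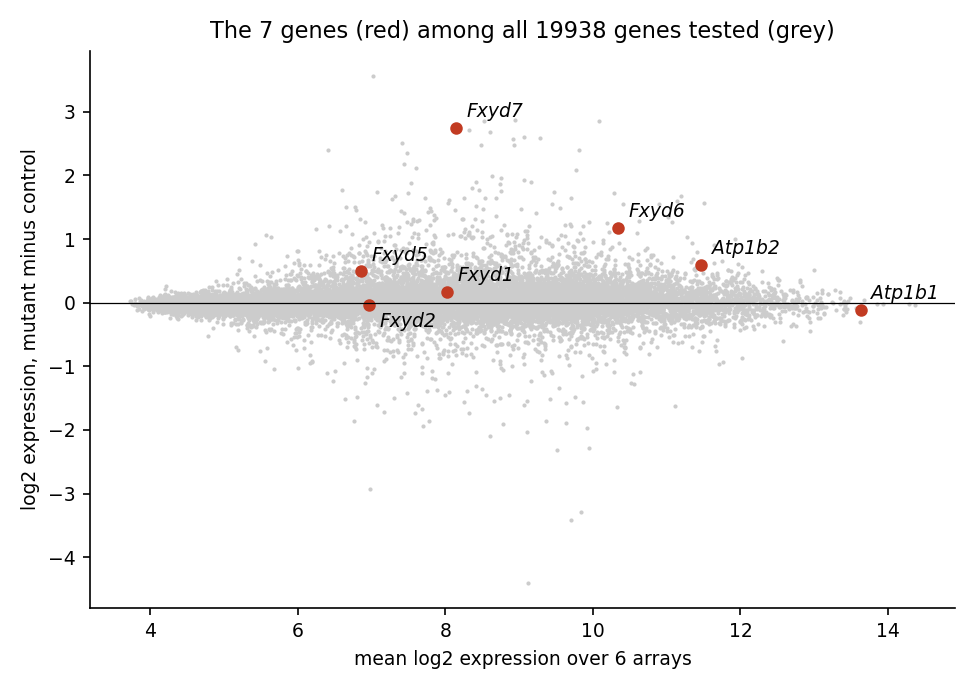
Change of each gene, mutant minus control in log2 units, on the vertical axis against its mean log2 expression over the 6 arrays on the horizontal axis. Grey dots are the 19938 genes tested and red dots the 7 genes described. Fxyd7 stands near the top at 2.75, while Fxyd2 at -0.029 and Atp1b1 at -0.11 lie within the band of most genes.

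Atp1b2 and Fxyd1 are also transcribed in glia, and the microdissected layer holds cells other than granule cells, so levels of marker genes were compared beside these results. In bulk tissue, more cells of a type and more RNA per cell cannot be told apart. The values have no zero and no detection call, so no marker can be called absent. Of 14 astrocyte markers, 2 were higher in mutants and none lower in limma, namely the intermediate filament Gfap with a log2 change of 0.54 (adjusted p = 0.0130) and the glutamate transporter Slc1a2 with 0.32 (adjusted p = 0.00845), and 12 did not pass. Their median change was 0.083. The log2 of their summed signal ranged from 13.27 to 13.57 in controls and from 13.57 to 13.74 in mutants, with control 1 the lowest array, as it was for Fxyd1. For Atp1b2, control 1 was instead the highest control, at 11.23. The mean log2 level over the astrocyte list overlapped between groups, from 8.41 to 8.74 in controls and from 8.61 to 8.81 in mutants. The part of astrocyte RNA in the values of Atp1b2 and Fxyd1 was not tested. For Fxyd5, which is also transcribed outside neurons, the summed signal ranged over 10.33 to 10.56 in controls and 10.38 to 10.58 in mutants for 11 endothelial markers, with 1 higher and 1 lower. It ranged over 10.26 to 10.82 in controls and 10.07 to 10.21 in mutants for 11 markers of meningeal and perivascular fibroblasts, with 3 lower and none higher. It ranged over 10.42 to 10.87 in controls and 10.37 to 10.55 in mutants for 11 microglia markers, with 1 lower and none higher. The summed signals of endothelial and microglia markers overlapped between groups, and that of fibroblast markers was lower in each mutant than in each control. Named by smallest p, Flt1 was higher by 0.44 and Egfl7 lower, with a change of -0.33, among endothelial markers, Ogn and Lum had changes of -2.93 and -1.10 among fibroblast markers, and Tmem119 had -0.32 among microglia markers.

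Mature granule cells were represented by 15 markers, of which 7 fell and 2 rose in mutants, and the summed signal of the list lay between 15.18 and 15.19 in controls and between 14.69 and 14.72 in mutants. The secreted C1q family protein C1ql2 and the syntaxin-binding protein Stxbp6 had the smallest p, with log2 changes of -3.29 and -0.69. The study proposes that Bcl11b/Ctip2 binds the C1ql2 promoter region directly. It also names desmoplakin (Dsp), on this list with a change of -0.81, as a direct target. The level of this list thus cannot be read as a number of granule cells. The defining factor of these cells, Prox1, had a log2 level of 11.65 in controls and 11.60 in mutants. Of the other lists, oligodendrocyte markers had 2 of 12 lower (Ermn and Ugt8a, at -1.71 and -0.34), oligodendrocyte precursor markers 0 of 6 changed in limma, pericyte and smooth muscle markers 1 of 9 higher (Pdgfrb, at 0.40), and choroid plexus and ependyma markers 1 of 10 lower (Kl, at -0.58). Markers of GABAergic interneurons had 1 of 11 higher and 2 lower, and those of pyramidal and mossy cells 2 of 10 higher and 3 lower, among them Fibcd1 at -0.94 and Wfs1 at 0.40. The summed signal of the interneuron list lay between 12.64 and 12.98 in controls and between 13.11 and 13.28 in mutants. Its 1 higher gene was Cck, the precursor of cholecystokinin, with a log2 change of 1.56 (adjusted p = 0.00709 from limma), while the 2 lower genes were neuropeptide Y (Npy), with -0.58, and Gad1, which makes GABA, with -0.27. The mean log2 level over this list overlapped between groups, from 8.18 to 8.49 in controls and from 8.33 to 8.47 in mutants. The summed signal of the pyramidal and mossy cell list was lower in every mutant, at 12.89 to 12.94 against 13.05 to 13.08 in controls. The part of these cells in the values of Fxyd6 and Fxyd7 was not tested.

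**Figure D3:**
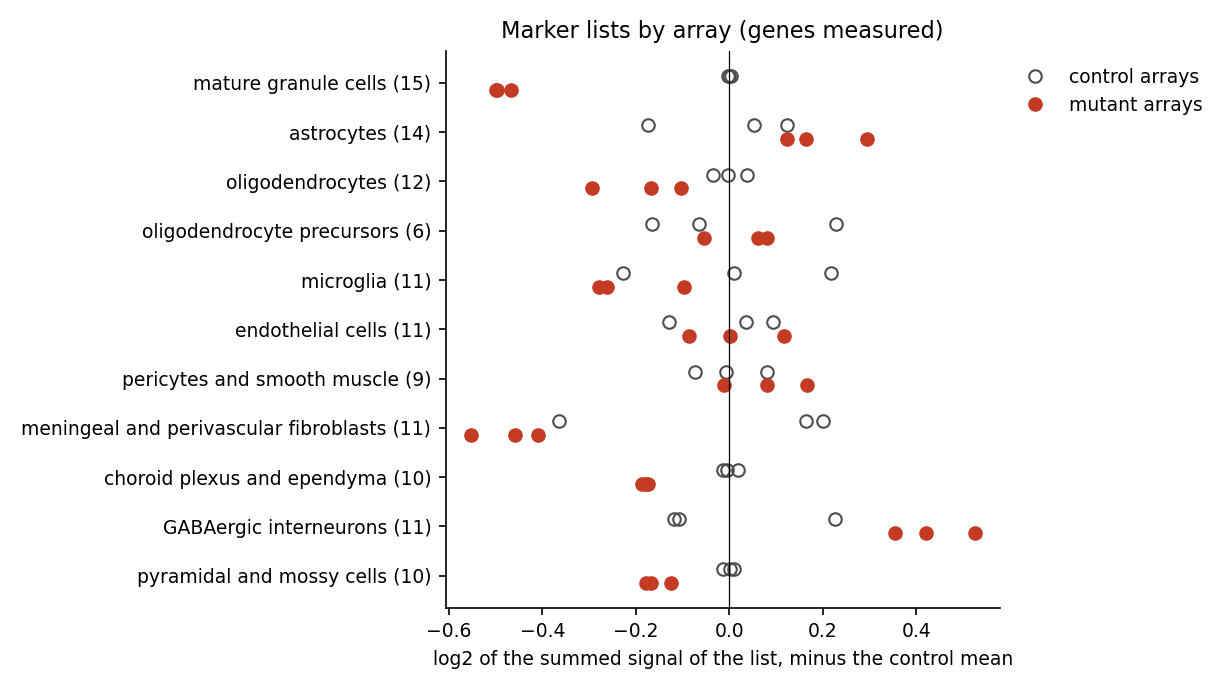
Log2 of the summed signal of each marker list in each array, minus the mean of the control arrays, on the horizontal axis, with the number of genes measured in brackets. Open circles are control and filled circles mutant arrays. Astrocyte markers of the mutants reach from 13.57 to 13.74 before subtraction, next to controls that reach up to 13.57.

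The other genes of the pump family were compared in the same fit. Atp1a4, the catalytic subunit of testis, had a log2 change of 0.012 (adjusted p = 0.932 from limma). Of the 4 Atp1b genes, 1 was higher and none lower. Atp1b3, a widely expressed beta subunit, had a change of 0.028. The muscle protein Atp1b4 had a change of 0.057, at a dim control level of 5.18. Of 7 FXYD genes, 3 were higher and none lower. The epithelial regulators Fxyd3 and Fxyd4 had changes of 0.099 and -0.094 and did not pass, at control levels of 5.60 and 5.63. These counts include the genes chosen on this contrast. NKAIN proteins are membrane proteins that bind the beta subunit of the pump. Of the 3 measured, Nkain2 (probe set 10368585) fell in mutants, with log2 levels of 11.33, 11.33 and 11.29 in controls and 10.97, 10.88 and 10.87 in mutants. Its change was -0.41 (standard error 0.053, adjusted p = 0.00117 from limma), and its groups did not overlap. A further Nkain2 probe set (10368596) had 7.10, 7.04 and 7.09 in controls and 7.07, 7.03 and 7.19 in mutants, with overlapping groups. The mean of both probe sets had a log2 change of -0.19 (adjusted p = 0.0329 from limma). Nkain3 and Nkain4 had changes of 0.014 and 0.012, and Nkain1 was not analysed here. The proton-potassium pumps Atp4a and Atp12a and the subunit Atp4b, relatives of the sodium pump in stomach and colon, had changes of -0.015, -0.057 and -0.076, and none of the 3 passed in limma.

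**Figure D4:**
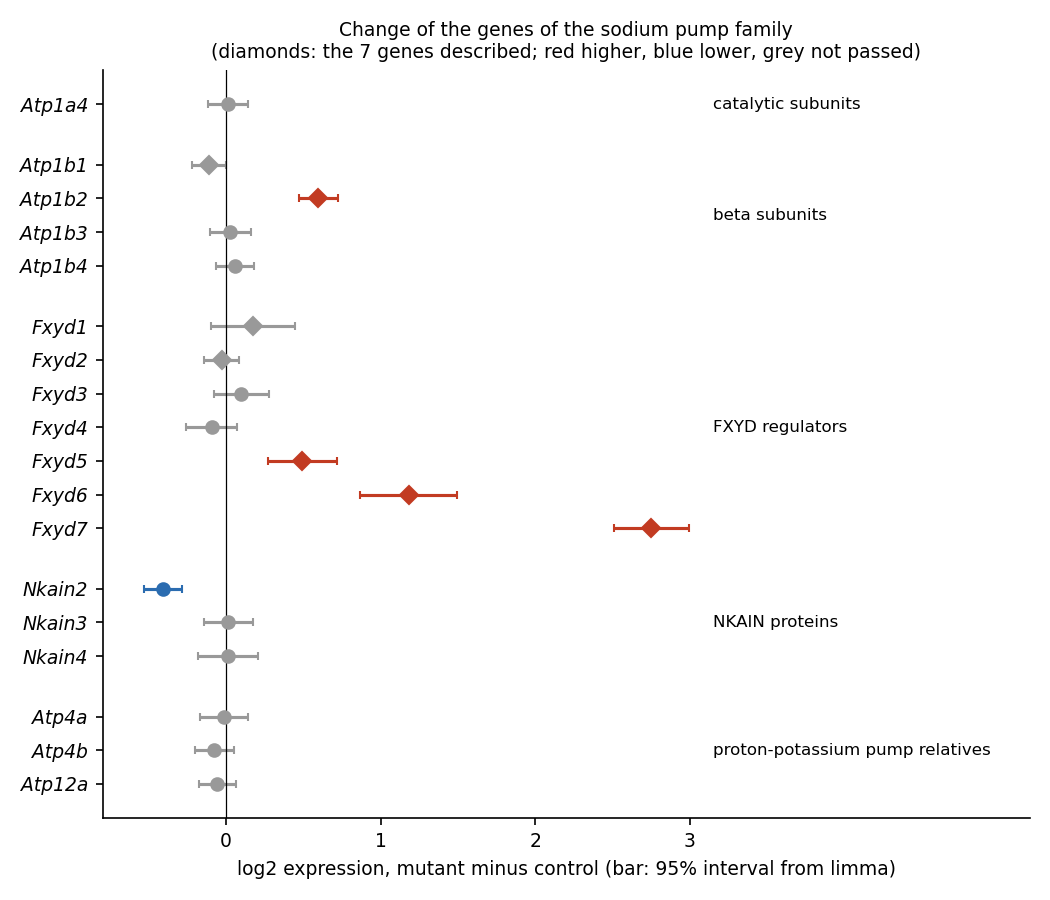
Log2 change of the genes of the sodium pump family, mutant minus control, on the horizontal axis with 95% intervals from limma (n = 3 per group). Diamonds are the 7 genes described, circles the others, red genes were higher, blue genes lower and grey genes did not pass the threshold. Fxyd7 lies farthest to the right at 2.75 and Nkain2 is the 1 gene that was lower, at -0.41.

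Among other carriers of ions, which share the gradients or the structure of the pump, 69 of 79 listed genes outside the 7 were measured, the subunits and relatives above included. Of these 69, 11 were higher, 2 lower and 56 did not pass, while over all genes 9.23% were higher and 5.93% lower. The median change of the 69 was 0.038, beside -0.0027 for all genes. It was 0.0245 for the 9969 genes with a mean level of 7.06 or more, which include 40 of the 69. With the test of the study's methods after adjustment, 6 of the 69 were higher and 1 lower, and 5.72% of all genes passed. Of 29 other P-type ATPases, which move calcium, copper, lipids or other cargo, 3 were higher and none lower. They were the lipid flippase family member Atp9a with a log2 change of 0.31 (adjusted p = 0.00484 from limma), and the lysosomal Atp13a2 with 0.28 and its relative Atp13a3 with 0.36, both known as polyamine transporters. The calcium pumps of the endoplasmic reticulum Atp2a2 and of the plasma membrane Atp2b1 had changes of 0.17 and -0.11 and did not pass.

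Of 26 sodium-coupled transporters of ions, 7 were higher, 1 was lower and 18 did not pass. The sodium-calcium exchanger Slc8a1, which uses the sodium gradient to remove calcium, had log2 levels of 8.02, 7.57 and 7.54 in controls and 9.47, 9.43 and 9.17 in mutants. No mutant overlapped the controls, and the change was 1.65 (standard error 0.13, adjusted p = 8.98e-05 from limma). Slc24a2, an exchanger that also carries potassium, rose by 0.51 (adjusted p = 0.00139 from limma). The sodium-proton exchangers Slc9a2 and Slc9a4 rose by 0.35 and 0.53, the former from a dim control level of 5.41. Slc9a4 did not pass without control 2, without mutant 1 or with the test of the study's methods after adjustment. The 1 lower gene, the sodium bicarbonate transporter Slc4a10, had a change of -0.26 (adjusted p = 0.0177 from limma) and did not pass without control 2, mutant 1 or mutant 3, nor with the test of the study's methods after adjustment. Of 3 potassium-chloride cotransporters, Slc12a5, which keeps chloride low in neurons, rose by 0.35 (adjusted p = 0.00843 from limma), with no overlap between groups, but likewise did not pass the latter test.

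Fxyd5, Fxyd7, Fxyd1 and Fxyd3 are neighbours on 1 mouse chromosome, and Fxyd6 and Fxyd2 on another, in the gene order of the GRCm38.p6 RefSeq table. Fxyd7, with its change of 2.75, stands between Fxyd5 with 0.49 and Fxyd1 with 0.17, and Fxyd2 with -0.029 lies next to Fxyd6 with 1.18. Genes of 1 group thus differed in size of change from gene to gene. Among the 12 measured neighbours that are not among the 7 genes, which include those between Fxyd1 and Fxyd3, 3 were higher and none lower. They were the transcription factor Usf2 with 0.24 (adjusted p = 0.0232 from limma), Gramd1a, a sterol transfer protein, with 0.20 (adjusted p = 0.0491) and the adhesion molecule Dscaml1 with 0.45 (adjusted p = 0.0297). Lgi4, a secreted protein beside Fxyd1, had 0.21 (adjusted p = 0.0854). None of the 12 passed in limma without control 2, mutant 2 or mutant 3. Without mutant 1, only Usf2 passed. Without control 3, the 1 that passed was a gene other than Usf2, Gramd1a and Dscaml1. Gramd1a did not pass without control 1 either. The log2 changes with each array left out in turn ranged from 0.22 to 0.28 for Usf2, from 0.15 to 0.22 for Gramd1a and from 0.33 to 0.58 for Dscaml1. None passed with the test of the study's methods after adjustment either, while 3 did at an unadjusted p under 0.05.

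**Figure D5:**
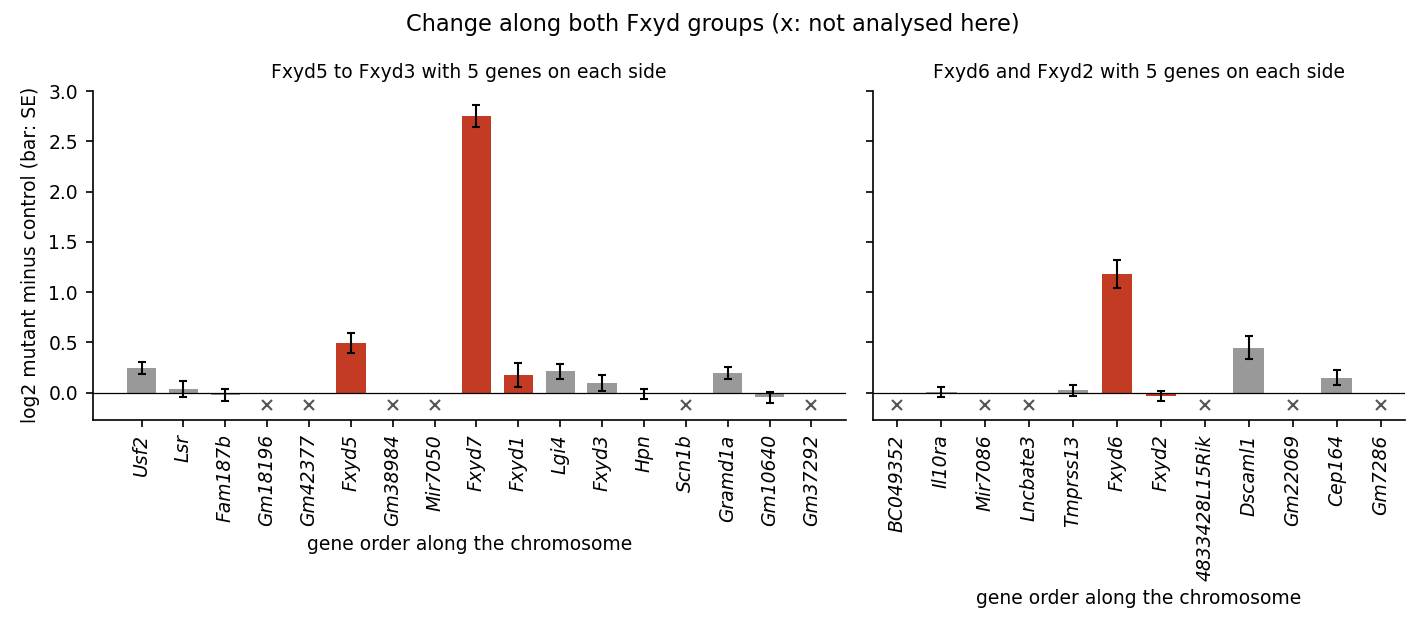
Log2 change, mutant minus control, on the vertical axis for genes in their order along the chromosome around both Fxyd groups, with bars for the standard error. Red columns are the genes described and grey columns their neighbours, and crosses mark genes not analysed here. Fxyd7 at 2.75 and Fxyd6 at 1.18 rise above all neighbours shown, of which Dscaml1 at 0.45 is the highest.

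Promoter windows were given for 4 of the 7 genes, Atp1b1, Fxyd1, Fxyd5 and Fxyd6, from 250 bases before to 50 bases after the start of the gene (RefSeq, GRCm38.p6). They were searched on both strands for TGGGC, the putative Bcl11b/Ctip2 binding site that the study names, and for TGACCA, which is bound by its paralogue BCL11A. Neither motif contains the other. TGGGC occurred in 3 of the 4 windows and in 56.9% of 32841 windows of the same length, and TGACCA in 0 of the 4 and in 13.6% of all windows. No window was given for Fxyd7, Fxyd2 and Atp1b2. The 5 matches are shown with up to 10 bases on each side, written 5′ to 3′ on the strand of the gene, with the motif in capitals (GCCCA is TGGGC on the other strand). They lie at chr7:31042476-31042500 for Fxyd5, at chr7:31055087-31055103 and chr7:31054947-31054971 for Fxyd1, all on the minus strand, and at chr9:45369945-45369969 and chr9:45370201-45370225 for Fxyd6 on the plus strand. The matches start 159 bases before the start of Fxyd5, 248 and 108 bases before that of Fxyd1 and 230 bases before that of Fxyd6, and the last lies just after the start of Fxyd6.
Fxyd5: ttgtcgtctgTGGGCaccagaggac
Fxyd1, distal: caTGGGCcgcctgtcac
Fxyd1, proximal: ggctcctggcTGGGCctcaccccag
Fxyd6, distal: tgtccccacaGCCCAccagctctat
Fxyd6, proximal: gctccggcgcTGGGCgcctcctccg
Fxyd1 and Fxyd6 held 2 matches each, Fxyd5 held 1 and Atp1b1 held none. A link between matches and expression was not tested. A match of letters is not a measured binding site. A window without the motif is not a measured lack of binding either. The study reports enrichment of Bcl11b/Ctip2 at a Sema5B promoter region that lacks TGGGC. The regions it tested for C1ql2 and Sema5B lie farther from the gene start than the windows searched here.

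The genes whose pattern over the 6 arrays was most like that of Fxyd7 were Lypla2, which removes palmitate from proteins, the protocadherin Pcdh10, the proteoglycan Spock2, the Ras regulator Dab2ip and the peptidase Trhde. Their Pearson correlations with Fxyd7 lay between 0.998 and 0.999 (n = 6 arrays). The split into 2 groups is shared by all these points, and 776 of 17075 genes with a regular symbol correlated above 0.95. The log2 levels of Pcdh10 were 9.10, 9.20 and 8.99 in controls and 10.11, 10.18 and 10.15 in mutants, in which control 3 was the lowest and mutant 2 the highest array, as for Fxyd7. The changes of the 5 genes lay between 0.85 for Lypla2 and 1.73 for Trhde, all below the 2.75 of Fxyd7.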

How the data were processed

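The deposited table holds log2 expression values of 35556 probe sets on 6 one-colour Affymetrix whole-transcript arrays, produced by the authors with Affymetrix Expression Console and RMA, a method that corrects background, normalizes quantiles and summarizes each probe set. No source read here states versions, settings or the annotation build. Of the probe sets, 21789 were paired with 1 gene, which gave 19938 genes, each with its probe set of highest mean, without a filter on level. The group comparison used lmFit and eBayes of limma 3.58.1 (R 4.3.3) without covariates, adjusted by Benjamini-Hochberg over all genes, at a threshold of 0.05. An exact permutation test of 3 against 3 arrays cannot give a p under 0.1. Precision is limited by having 3 arrays per group. Array medians lay between 6.29 and 6.36. Control 1 lay farthest from the other arrays on the second principal component (14.5% of the variance). The 7 genes and the lists were chosen with earlier results of these data known, the lists from general knowledge. Named are the 7 genes, the pump family, up to 4 called genes of each further transporter list and 2 of each marker list with the smallest p, called neighbours (5 genes on each side of the Fxyd groups and those between), and the 5 genes most correlated with Fxyd7. Slc4a10, Atp2a2, Atp2b1, Prox1, Gad1 and Lgi4 were named after their values were seen. On simulated data over 19938 genes, the comparison of mutants with controls found 30% of 50 genes altered by 1.25-fold, 76% by 1.5-fold and 96% by 2-fold. In it 19738 genes were unchanged and the measured spreads were shuffled over genes. These shares may thus differ from those in the real data, where 15.2% of genes passed. Batches are not stated and were not tested. Alternatives were the methods' test, a trend with robust prior, array weights, a dim-gene filter at 7.06, the mean of all probe sets, renewed quantile normalization, median centring, the replicate number as a block, a threshold of 0.01 and leaving out each array.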

Additional observations from a re-analysis of the deposited data

How the results depend on the processing

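Fxyd7, Fxyd6, Fxyd5 and Atp1b2 had a higher mean in mutants under each normalization, probe set choice and array left out, with leave-one-out ranges of the log2 change of 2.63 to 2.82, 1.04 to 1.36, 0.38 to 0.55 and 0.57 to 0.62. That of Atp1b1 was -0.12 to -0.10, of Fxyd1 0.046 to 0.27 and of Fxyd2 -0.042 to -0.020. The change of Atp1b1 was -0.095 with median centring and -0.13 with renewed quantile normalization, beside -0.11 as reported. Fxyd5 missed the threshold without mutant 2 and at a threshold of 0.01. With the methods' test after adjustment, Fxyd5 and Fxyd6 did not pass and Atp1b1 was called lower. The dim-gene filter removed Fxyd2 and Fxyd5. Over all genes, 1840 were higher and 1183 lower. These counts were 3156 and 2371 with array weights, 694 and 447 with the methods' test after adjustment, 2550 and 1995 without adjustment, 1018 and 536 at a threshold of 0.01, and between 1206 and 2756 higher and between 678 and 1731 lower when each array was left out. Among the 69 other pump and transporter genes, 6 were higher and 1 lower with the methods' test after adjustment, 7 and 1 at a threshold of 0.01, 13 and 4 with array weights, and 8 to 13 and 1 to 2 when each array was left out. Of the 12 neighbours, 5 changed with array weights, 0 with the methods' test after adjustment (3 without), 0 at a threshold of 0.01, and 0 to 3 when each array was left out. The cause of these shifts was not tested, except that a stricter threshold makes fewer calls by construction. Same-numbered arrays were not treated as pairs in the main fit. Their deviations from the group means had correlations of 0.16, -0.033 and 0.12. For replicates 1 and 3 the same-numbered array of the other group was the best match in both directions, and for replicate 2 it was not. With the replicate number as a block, 1925 genes were higher and 1251 lower, 12 and 3 of the 69 other genes and 2 of the 12 neighbours changed, and the same 4 of the 7 genes passed. Fxyd4, which did not pass, had a change of -0.094 that became 0.011 with array weights. The arrays carry no detection measure, so levels near 5 to 7 cannot be told from background.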
